A study of Homo sapiens with 5 samples.

Results

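The INO80 and TIP60 complex genes are 10 genes that code for subunits of the other chromatin complexes that contain ACTL6A, besides SWI/SNF. They were taken by name, from what is known of the complexes and by no measured value, although earlier results of these data were known, and make up 10 of 19689 genes that have protein-coding transcripts in GENCODE release 44. All 10 were found in the annotation. For each gene the peaks over its annotated span and 10 kb to each side were read from 5 lists of CUT&Tag peaks. CUT&Tag uses an antibody to bring the Tn5 transposase to chromatin, which then inserts sequencing adapters beside the bound protein.

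The cells were SNU638, an established human gastric cancer line, grown in medium with serum and not treated. One antibody each to ACTL6A, BRG1 and NRF2 was used, with 1 library per antibody, and 2 libraries were made with IgG, an antibody with no chromatin target, called IgG 1 and IgG 2 here. Since no antibody had a replicate, differences between lists have no replicate check and no test was made. The lists hold no library totals, and by the study's methods the ACTL6A library had the fewest clean reads. Each peak is described by its rank in its own list, ordered by the peak caller's -log10 q, and by the number of sequenced fragments at its summit, the highest point of the peak, as recovered from the caller's values. The lists held 23917 (ACTL6A), 48793 (BRG1), 9045 (NRF2), 11 (IgG 1) and 1746 (IgG 2) peaks. The median peak had 6 fragments for ACTL6A, 10 for BRG1 and 17 for NRF2, so a missing ACTL6A peak rests on few fragments.

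INO80 is a remodeling complex that slides nucleosomes and acts on those with the histone variant H2A.Z, in transcription, replication and DNA repair. TIP60, also called NuA4, is an acetyltransferase complex that marks histones H4 and H2A, and its EP400 subunit helps to deposit H2A.Z. ACTL6A, an actin-like protein, is a subunit of both and of SWI/SNF, whose ATPase is BRG1, so an antibody to ACTL6A can bring in chromatin bound by any of them. Among the 10 genes, INO80 codes for the ATPase of its complex, and ACTR5 and ACTR8 for actin-related subunits specific to it. RUVBL1 and RUVBL2 code for the paired AAA+ ATPases of both complexes. KAT5 codes for the acetyltransferase TIP60 itself, TRRAP for the large scaffold that meets transcription factors such as MYC, EP400 for an ATPase, YEATS4 for a reader of acylated histones and DMAP1 for an adaptor protein. The peaks describe binding at these genes and not the level of their RNA or protein.

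The sequences of 7 sites carry the results below. They are given from GRCh38 5′ to 3′ along the gene's strand, cut to the interval shared by the peaks of the site and, within it, to a stretch outside every annotated exon. For KAT5, whose peaks had no interval in common, the stretch is the part of the whole site before the first start of the gene. For the site at the start of SELENOK, none of the 3 summits lies in the stretch. Capitals mark letters of 9 motifs searched on both strands: TGACNNNGC (NRF2 core), TGANTCA (AP-1), AAGATGGCG (YY1), GCATGCGC (NRF1), CCGGAAGT (ETS), TGACGTCA (CRE), CACGTG (E-box), CCAAT (NFY) and GGGCGG (SP1). The letters of the AP-1 and NRF2 core patterns can overlap.
ACTR5 upstream of the start, where the summits of all 3 antibodies met, chr20:38748150-38748428, plus strand: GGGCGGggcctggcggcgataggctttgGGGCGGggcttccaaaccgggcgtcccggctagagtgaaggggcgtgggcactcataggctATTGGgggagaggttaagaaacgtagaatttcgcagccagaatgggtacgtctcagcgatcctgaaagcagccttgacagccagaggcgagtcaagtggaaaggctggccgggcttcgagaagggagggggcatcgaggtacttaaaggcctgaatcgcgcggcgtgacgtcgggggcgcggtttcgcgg
RUVBL1 upstream of the start, the highest ranked ACTL6A peak at a member's start, chr3:128123813-128124058, minus strand: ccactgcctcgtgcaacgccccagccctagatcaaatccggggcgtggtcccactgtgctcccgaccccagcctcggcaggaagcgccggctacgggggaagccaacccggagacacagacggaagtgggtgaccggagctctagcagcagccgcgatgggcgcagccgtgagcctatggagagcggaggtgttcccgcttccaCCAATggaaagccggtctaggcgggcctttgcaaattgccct
RUVBL2 upstream of the start, with an NRF2 core near the summits, chr19:48993381-48993561, plus strand: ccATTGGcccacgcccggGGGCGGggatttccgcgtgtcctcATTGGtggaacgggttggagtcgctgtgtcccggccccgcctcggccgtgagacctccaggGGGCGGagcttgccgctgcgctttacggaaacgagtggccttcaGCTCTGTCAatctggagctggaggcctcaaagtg
EP400 upstream of the start, bound in the BRG1 and NRF2 lists and not in the ACTL6A list, chr12:131949736-131949941, plus strand: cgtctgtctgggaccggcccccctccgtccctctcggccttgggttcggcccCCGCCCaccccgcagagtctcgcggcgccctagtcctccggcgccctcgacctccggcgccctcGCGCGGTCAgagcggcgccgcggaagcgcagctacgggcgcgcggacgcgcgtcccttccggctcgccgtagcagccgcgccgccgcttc
KAT5 upstream of the first start, under the edge of the highest ranked BRG1 peak of the 10 windows and outside the ACTL6A and NRF2 peaks, chr11:65711920-65711995, plus strand: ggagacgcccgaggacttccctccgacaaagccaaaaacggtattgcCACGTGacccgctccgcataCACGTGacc
ACTR8 neighbour site at the start of SELENOK, the highest ranked ACTL6A peak of the 10 windows, chr3:53891886-53892013, minus strand: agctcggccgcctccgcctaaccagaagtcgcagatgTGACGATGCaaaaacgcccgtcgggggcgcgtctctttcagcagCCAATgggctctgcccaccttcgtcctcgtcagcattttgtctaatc
INO80 intron 24, the highest ranked BRG1 site away from a start, chr15:41031900-41032100, minus strand: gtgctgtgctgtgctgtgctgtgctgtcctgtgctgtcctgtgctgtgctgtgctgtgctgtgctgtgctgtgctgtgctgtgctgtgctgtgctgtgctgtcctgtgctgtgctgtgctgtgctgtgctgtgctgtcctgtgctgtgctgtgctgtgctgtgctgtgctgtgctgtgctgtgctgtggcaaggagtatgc

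Peaks no more than 1 kb from the first base of any protein-coding transcript of a gene were counted as peaks at its transcriptional start site (TSS). BRG1 had a peak at a TSS of all 10 genes, NRF2 at 7 and ACTL6A at 6. Among all genes the shares were 63.5% for BRG1, 28.1% for NRF2 and 38.5% for ACTL6A. Among genes with a BRG1 peak at a TSS, as all 10 had, 58% had an ACTL6A peak there and 43.6% an NRF2 peak. The 6 of 10 for ACTL6A was near that share. All 3 antibodies had a peak at a TSS of INO80, RUVBL1, RUVBL2, ACTR5, KAT5 and YEATS4, 6 of 10 genes, against 22.1% of all genes. For RUVBL1 the NRF2 peak lay only at an alternative start shared with another gene, and with the MANE Select start alone, the reference transcript chosen jointly by Ensembl and NCBI, 5 genes had all 3. The share of all genes was not computed for the MANE Select start alone. Neither IgG list had a peak at a TSS of the 10 genes, where 0% (IgG 1) and 0.152% (IgG 2) of all genes had one. The sources do not say which IgG library goes with which antibody. The peak names of the IgG 1 list carry BRG1 and those of IgG 2 no target, and a list of 11 peaks can show little background at any gene.

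**Figure D1:**
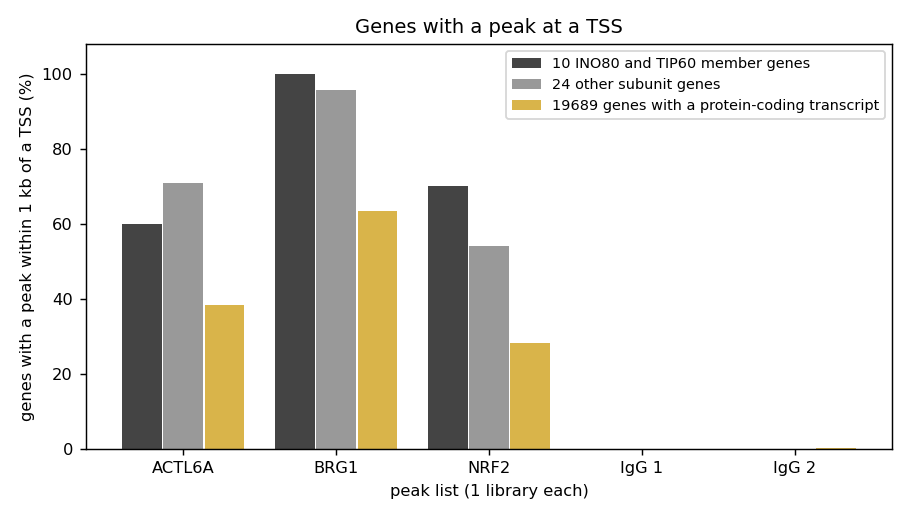
Share of genes with a peak within 1 kb of a TSS (%, vertical axis) in each of the 5 peak lists (horizontal axis), for the 10 member genes, 24 other subunit genes of the same complexes and all 19689 genes. The bars of the 3 antibodies are higher for both sets of subunit genes than for all genes, and there is no error bar because each list comes from 1 library.

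The 4 genes without an ACTL6A peak at a TSS were ACTR8, TRRAP, EP400 and DMAP1, and all of these but EP400 also lacked an NRF2 peak there. Over the gene and 10 kb to each side, ACTL6A had a peak at 9 genes, BRG1 at 10 and NRF2 at 8, against 66.9%, 82.7% and 41.1% of all genes. DMAP1 was the gene with no ACTL6A peak in its window, and DMAP1 and TRRAP had no NRF2 peak in theirs. The IgG lists had 0 peaks in the 10 windows, where 0.0356% (IgG 1) and 1.67% (IgG 2) of all genes had one. The windows held 19 ACTL6A, 48 BRG1 and 9 NRF2 peaks. A gene had 0 to 4 ACTL6A peaks, 1 to 13 BRG1 peaks and 0 to 2 NRF2 peaks, with medians of 1.5, 4.5 and 1 beside 1, 2 and 0 over all genes. The genes spanned 7.23 kb (DMAP1) to 173 kb (TRRAP), with a median of 27.6 kb beside 27.3 kb for all genes.

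**Figure D2:**
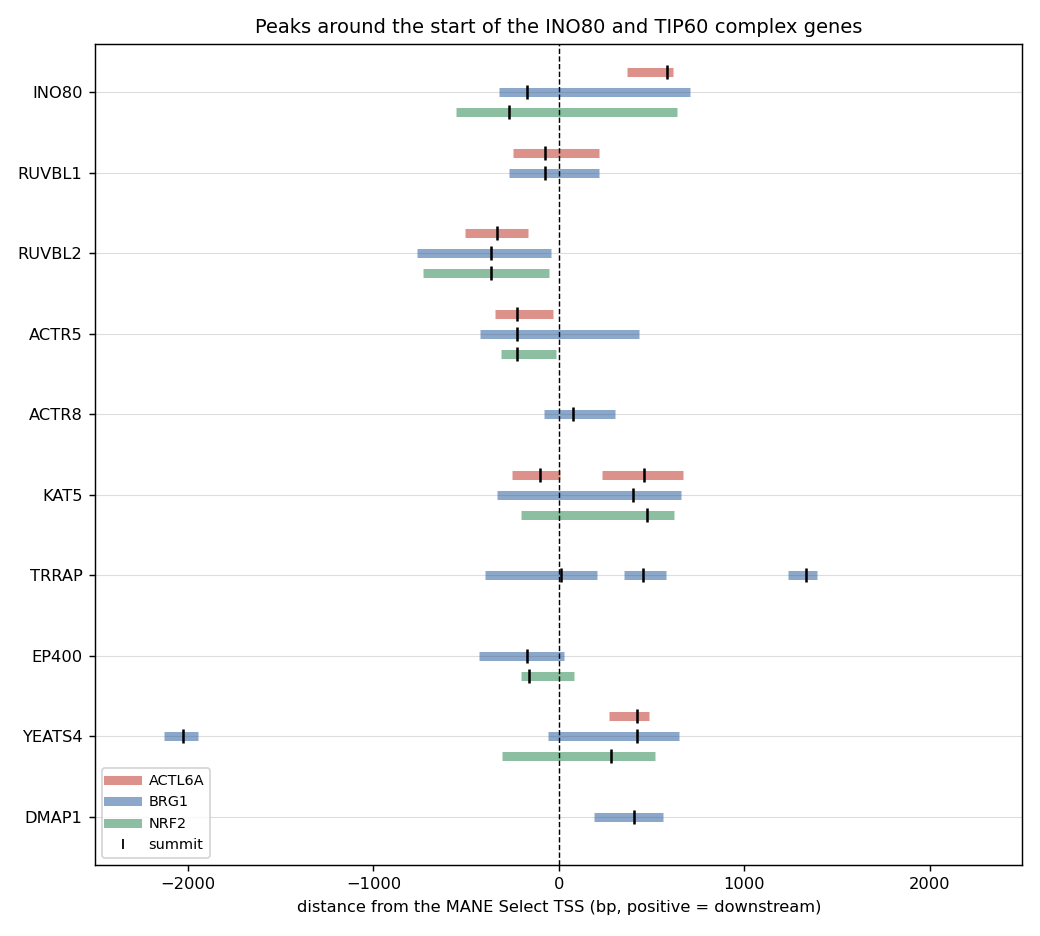
Peaks of the 3 antibodies (coloured bars from start to end, with the summit marked) at each of the 10 genes, drawn by distance from the MANE Select TSS in bp, positive in the direction of transcription. Bars of all 3 antibodies are drawn at INO80, RUVBL2, ACTR5, KAT5 and YEATS4, and BRG1 has a bar at every gene.

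Among the genes of the INO80 complex, INO80 itself (ENSG00000128908, minus strand of chromosome 15 from 40978880 to 41116280, 36 exons in the MANE Select transcript) had a wide BRG1 peak over its start, 1032 bp, with 46 fragments at the summit where 1.90 were expected. It ranked 1518, in the highest 3.11% of the BRG1 list. The NRF2 peak there was 1192 bp wide, with 22 fragments against 3.61 expected, in the highest 31.7% of its list. The ACTL6A peak was low, with 6 fragments against 0.569 expected and rank 15079, in the highest 63.0%. The BRG1 and NRF2 summits lay 174 bp and 268 bp upstream of the TSS, whereas the ACTL6A summit lay 583 bp downstream in intron 1, 757 bp from the BRG1 summit. The ACTL6A peak was inside both other peaks, at another place than their summits.

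ACTR5 (ENSG00000101442, plus strand of chromosome 20 from 38748460 to 38772520) had 1 peak from each antibody and no other in its window. The BRG1 and NRF2 summits fell on the same base, 227 bp upstream of the TSS, and the ACTL6A summit 3 bp from it. The ranks at this shared summit differed widely. BRG1 had 31 fragments and was in the highest 8.17% of its list, ACTL6A had 8 fragments and was in the highest 19.6%, and NRF2 had 11 fragments against 2.52 expected, in the highest 95.6%, near the caller's threshold. ACTR8 (ENSG00000113812, minus strand of chromosome 3 from 53867066 to 53882152) had at its start a BRG1 peak alone, with 12 fragments against 0.420 expected, in the highest 25.3%. Its summit lay 74 bp downstream of the TSS, in the coding part of exon 1.

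RUVBL1 and RUVBL2, whose proteins form a mixed ring, differed at their starts. RUVBL1 (ENSG00000175792, minus strand of chromosome 3 from 128064778 to 128153914) had ACTL6A and BRG1 peaks whose summits were on the same base, 73 bp before the MANE Select start. The ACTL6A peak had 16 fragments against 0.599 expected and ranked 1441, in the highest 6.03% of its list, the best rank of ACTL6A at a TSS of the 10 genes. BRG1 had 22 fragments there and was in the highest 12.8%. These peaks shared 463 bp, which was 100% of the ACTL6A peak and 95.5% of the BRG1 peak. There was no NRF2 peak at this start. Another RUVBL1 transcript, ENST00000464873, starts 30102 bp upstream, close to the start of EEFSEC, and the peaks of all 3 antibodies there cannot be given to either gene. They had 9 fragments for ACTL6A, 13 for BRG1 and 17 for NRF2.

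RUVBL2 (ENSG00000183207, plus strand of chromosome 19 from 48993562 to 49015970) had all 3 antibodies at its start. BRG1 had 65 fragments against 4.24 expected, in the highest 2.26% of its list, NRF2 30 fragments, in the highest 19.9%, and ACTL6A 12 fragments, in the highest 17.2%. The BRG1 and NRF2 summits lay on the same base, 364 bp before the MANE Select start, and the ACTL6A summit was 32 bp away. A start of GYS1, the glycogen synthase of muscle and most other tissues, was also within 1 kb of these peaks, so the site belongs to a stretch that both genes share.

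**Figure D3:**
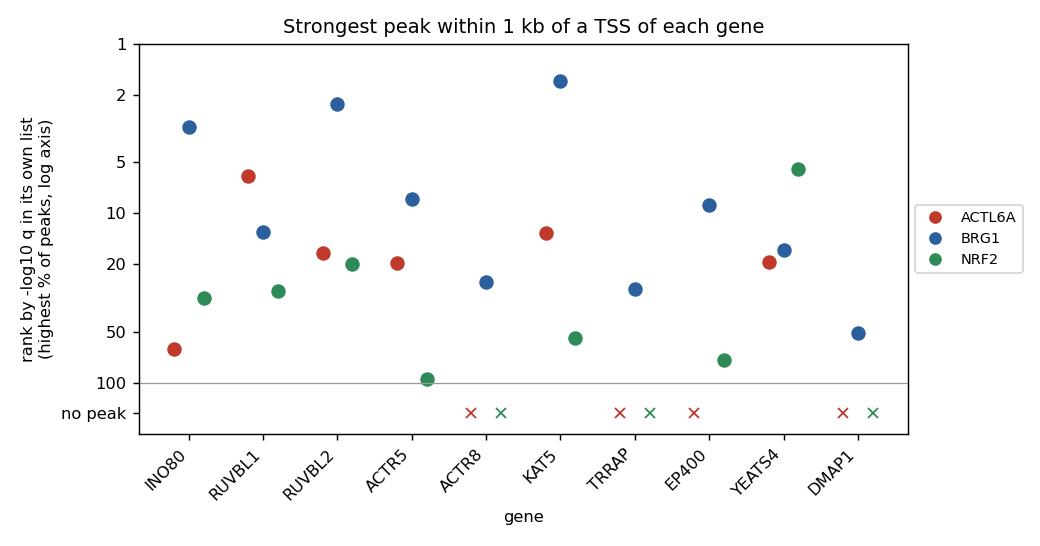
Rank of the strongest peak within 1 kb of a TSS of each gene in its own list, as the highest percent of peaks by -log10 q (log axis, best ranks at the top), with a cross where a list has no peak. BRG1 points are present for all 10 genes, from 1.65% at KAT5 to 50.8% at DMAP1, and ACTL6A points run from 6.03% at RUVBL1 to 63.0% at INO80.

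Of the TIP60 genes, KAT5 (ENSG00000172977, plus strand of chromosome 11 from 65711996 to 65719604) had the BRG1 peak of the best rank in the 10 windows, rank 803, in the highest 1.65%, with 75 fragments against 5.24 expected. The gene has 11 annotated protein-coding starts. ACTL6A had a pair of peaks under this one BRG1 peak, 1 with its summit 103 bp before the MANE Select start and 13 fragments, the other with its summit 461 bp downstream in intron 1 and 16 fragments. The NRF2 summit lay 12 bp from the downstream ACTL6A summit, with 20 fragments, in the highest 54.1%. The stretch before the first start held 2 E-boxes, the letters bound by MYC and related factors. It lies outside the ACTL6A and NRF2 peaks, and no share of such stretches with E-boxes was computed for other genes.

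YEATS4 (ENSG00000127337, plus strand of chromosome 12 from 69359710 to 69390870) was where NRF2 ranked highest among the 10 genes. Its NRF2 peak had 40 fragments against 3.33 expected and rank 494, in the highest 5.46% of the list. BRG1 had 26 fragments and was in the highest 16.4%, and ACTL6A had 11 and was in the highest 19.4%. The ACTL6A and BRG1 summits were 2 bp apart in intron 1, about 140 bp further into the gene than the NRF2 summit, which lay 281 bp downstream of the TSS.

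EP400 (ENSG00000183495, plus strand of chromosome 12 from 131949942 to 132080460) had BRG1 and NRF2 at its start and no ACTL6A peak. BRG1 had 32 fragments there, in the highest 8.87% of its list, and NRF2 14 fragments, in the highest 73.6%, with summits 6 bp apart and 169 bp and 163 bp upstream of the TSS. TRRAP (ENSG00000196367, plus strand of chromosome 7 from 98877933 to 99050831) had BRG1 peaks alone at its start, the strongest with 18 fragments, in the highest 27.8%, and its summit 11 bp downstream of the TSS in the 5′ UTR. DMAP1 (ENSG00000178028, plus strand of chromosome 1 from 44213455 to 44220681) had the lowest BRG1 peak of the 10 starts, with 9 fragments against 0.819 expected, in the highest 50.8%.

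Among all genes an ACTL6A or NRF2 peak at a TSS was more frequent where the BRG1 peak ranked higher. Of the 12512 genes with a BRG1 peak at a TSS, 58% had an ACTL6A peak and 43.6% an NRF2 peak there. Where the BRG1 peak was in the highest 20% of its list, these shares were 77.5% and 63.4%, and below that rank 36.5% and 21.8%. The split at 20% was chosen after the values were seen. Of the 7 with BRG1 in the highest 20%, 6 had ACTL6A and 7 had NRF2, and of the 3 with a lower BRG1 rank, ACTR8, TRRAP and DMAP1, 0 had either. EP400 was the exception for ACTL6A, in a class (highest 10% for BRG1) where 85.5% of genes had an ACTL6A peak. BRG1 had 9 to 32 fragments at the strongest peak of the 4 genes without ACTL6A and 22 to 75 at the 6 with it, ranges that overlap because of EP400. At those 6 genes ACTL6A had from 0.130 (INO80) to 0.727 (RUVBL1) fragments per BRG1 fragment. These ratios compare libraries of different depth and are read only between genes. The counts are those at each list's own summit, and the summits lay 757 bp apart at INO80 and on the same base at RUVBL1.

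**Figure D4:**
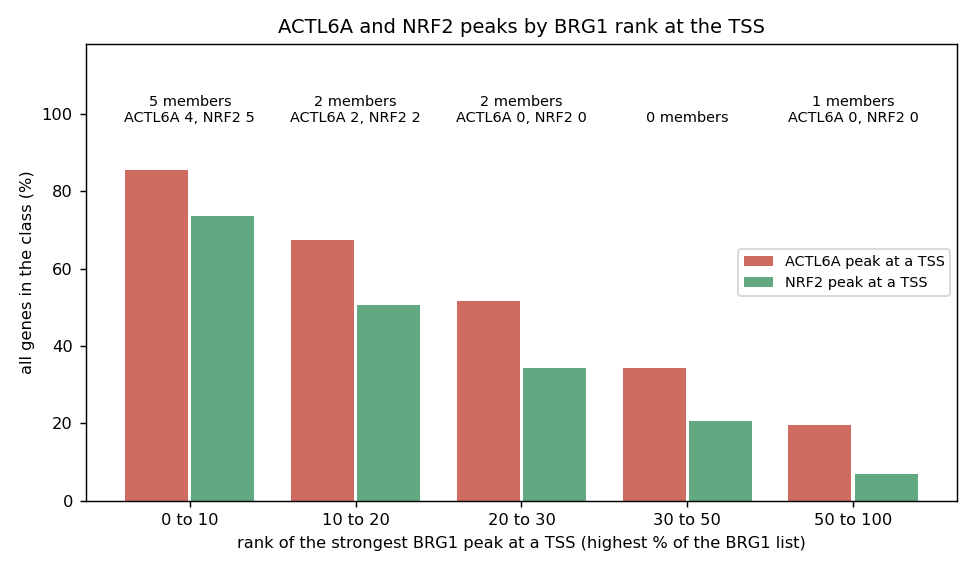
Share of all genes with an ACTL6A or an NRF2 peak at a TSS (%, vertical axis), by the rank class of the gene's strongest BRG1 peak at a TSS (horizontal axis, highest percent of the BRG1 list), with the number of member genes and how many of them had each peak written above. The share for ACTL6A falls from 85.5% to 19.6% across the classes, and the 3 members in the lower 3 classes have neither peak.

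All 8 ACTL6A peaks at a TSS of the 10 genes overlapped a BRG1 peak and 7 an NRF2 peak, by 1 bp or more, against 87.1% and 48.2% of the ACTL6A peaks at a TSS of any gene, so the overlap with BRG1 was near what the whole list shows. The BRG1 peak covered at least 98.2% of each ACTL6A peak, and the widest BRG1 peaks reached far beyond it. When each peak had to cover 50% of the other, 1 of 8 remained for BRG1, the pair at the MANE Select start of RUVBL1, and 3 of 8 for NRF2, against 44% and 21.8% of ACTL6A peaks at a TSS of any gene. A BRG1 summit lay within 100 bp of the ACTL6A summit for 5 of the 8 peaks and an NRF2 summit for 3, against 53% and 19.9%. Among the strongest peaks at a TSS of each gene, the median rank was in the highest 18.3% for ACTL6A, 10.8% for BRG1 and 31.7% for NRF2, beside 20.7%, 18.8% and 41.8% over all genes with such a peak. The median width of these member peaks was 327 bp for ACTL6A, 659.5 bp for BRG1 and 681 bp for NRF2, beside 279, 419 and 557 bp over all peaks at a TSS of any gene, of which a gene can have several.

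The 76 peaks formed 53 sites when overlapping peaks were joined. All 3 antibodies met at 8 sites, 6 of them at a TSS of the gene, 2 antibodies at 6 sites, and 39 sites had 1 antibody, 34 of them BRG1 and 5 ACTL6A. No site had NRF2 alone. Over the whole lists, joined in the same way, 6.92% of 62828 sites had 3 antibodies, 14.6% had 2, 55.7% BRG1 alone, 18.5% ACTL6A alone and 4.37% NRF2 alone. Of the 53 sites, 32 were away from every protein-coding start, and 22 of these had BRG1 alone and 5 had more than 1 antibody, beside 58.4% and 13.4% of such sites in the whole lists. Of the peaks in the windows, 7 of 9 for NRF2, 8 of 19 for ACTL6A and 14 of 48 for BRG1 were at a TSS of the gene. In the whole lists 52.4% (NRF2), 30.3% (ACTL6A) and 31.1% (BRG1) of peaks lay at a TSS of any gene, so NRF2 had the highest share there too. Counted in that way, the windows add 7 BRG1, 1 ACTL6A and 1 NRF2 peaks that were at a TSS of another gene only. The counts at a TSS of the gene itself are therefore not the same measure as the whole-list shares.

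The highest ranked BRG1 site away from any start was in intron 24 of INO80, 84.3 kb downstream of the TSS. The BRG1 peak had 45 fragments against 1.04 expected and rank 884, above the BRG1 peak at the start of the same gene. ACTL6A had 11 fragments against 0.314 expected and rank 2350, also above its peak at the start, and the summits were 35 bp apart. NRF2 and both IgG libraries had no peak there. The sequence printed above is a tandem repeat, mostly of the letters gtgct. Over the site 89.0% of bases equalled the base 10 positions before and 87.1% the base 5 positions before, and with periods of 1 to 12 bases no other of the 53 sites went over 61.1%. This measure was chosen after the sequence was seen. A share of at least 80% was found in 0.135% of all BRG1 peaks and in 1.2% of the highest 1000, and in 0.385% and 3% for ACTL6A. How well reads can be placed in this repeat was not tested.

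The highest ranked ACTL6A peak of all 10 windows was at the start of a neighbour. It lay 9938 bp upstream of the ACTR8 TSS, at the start of SELENOK, a selenoprotein of the endoplasmic reticulum, with 21 fragments against 0.539 expected and rank 524, in the highest 2.19%. BRG1 had 24 fragments there and NRF2 22, and the ACTL6A and BRG1 summits were 6 bp apart. By the window of 10 kb alone ACTR8 would thus count for all 3 antibodies, and by its own start for BRG1 only. The other neighbours with a protein-coding start near a peak away from the members' own starts had BRG1 alone, with a peak at the start of RNASEH2C beside KAT5 (29 fragments) and peaks within 1 kb of starts of LHB, CGB3 and ENSG00000268655 downstream of RUVBL2. LHB and CGB3 belong to a cluster of near-identical gonadotropin genes, where reads can be hard to assign to 1 copy.

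EP400 had the most BRG1 peaks, 13, of which 11 had 4 to 14 fragments. In intron 12, a BRG1 peak of 14 fragments and an ACTL6A peak of 5 fragments shared 434 bp, with summits 263 bp apart, and in intron 45 peaks of 7 and 6 fragments shared 150 bp. Past the 3′ end of the gene all 3 antibodies had a peak about 134 kb from the TSS, next to the starts of lncRNA genes ENSG00000274670 and ENSG00000291171, with 24 fragments for BRG1, 10 for ACTL6A and 13 for NRF2. TRRAP was the gene whose ACTL6A and BRG1 peaks were apart. Its 4 ACTL6A peaks had 3 to 5 fragments each, lay 23.1 kb to 168 kb downstream of the TSS, 3 of them beyond the MANE Select transcript but within the annotated gene, and none overlapped a BRG1 peak. The other ACTL6A peak without BRG1 was in intron 25 of EP400, with 3 fragments.

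In the 250 bases before the MANE Select starts, the NRF2 core was found at 2 of the 10 genes, TRRAP and EP400, and at 11.4% of 19060 such promoters. The NRF2 core of RUVBL2 and the E-boxes of KAT5 printed above lie further upstream than this. Of the 9 NRF2 peaks in the windows, 3 held the core, those at RUVBL2, EP400 and SELENOK, against 22.7% of all NRF2 peaks, with median widths of 475 bp and 474 bp. The match nearest to a summit was at RUVBL2, 9 bp from it. The NRF2 peak of the best rank, at YEATS4, had no match. SP1 letters were found before 6 starts (59.9% of all promoters), NFY before 5 (34.4%), ETS before 2 (5.1%), KAT5 and DMAP1, and an E-box before 1 (7.88%), KAT5, a match other than those printed. The AP-1 (4.74%), YY1 (0.75%), NRF1 (3.84%) and CRE (2.46%) letters were found before 0 of the 10. A match to letters is no evidence of binding.

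A further 24 genes of the INO80, TIP60 and related SRCAP complexes were listed as context, ACTL6A and ACTB, the actin shared by these complexes, included. BRG1 had a peak at a TSS of 23 of them, ACTL6A of 17 and NRF2 of 13, and 12 had all 3, again beside the shares of 63.5%, 38.5%, 28.1% and 22.1% for all genes. INO80B was the gene without BRG1. ACTL6A was missing at INO80B, INO80E, YY1, MEAF6, MORF4L1, VPS72 and ZNHIT1, and MORF4L1 resembled EP400, with BRG1 in the highest 9.21% and NRF2 in the highest 26.8%. The best ranks were those of ACTL6A at MBTD1 (39 fragments, rank 173), BRG1 at ACTB (80 fragments, rank 1132) and NRF2 at SRCAP, the ATPase of the SRCAP complex (49 fragments, rank 493). At its own gene ACTL6A had 32 fragments against 1.18 expected, in the highest 1.09% of its list, a better rank than at any of the 10 genes. Below the highest 20% for BRG1, 7 of 10 of these other genes and 0 of 3 of the member genes had ACTL6A, beside 36.5% of all genes. That split was chosen after the values were seen, so the 0 of 3 depends on where it was put. In the BRG1 class from 20% to 30%, which holds ACTR8 and TRRAP, 51.6% of all genes had ACTL6A. In the class from 50% to 100%, which holds DMAP1, 19.6% did. The difference between these other genes and the members was not tested.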

How the data were processed

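CUT&Tag libraries of SNU638 cells were analysed as the peak lists the authors deposited, 1 per library. Per the labels and methods, reads were trimmed with fastp 0.23.0, mapped with BWA to hg38 and peaks called with MACS2 on uniquely mapped reads at a q-value below 0.05, and the control given to the caller is not given in the sources used here. The deposited score is 10 times the -log10 q-value, cut to a whole number. The deposited fold enrichment is the ratio of observed to expected fragments at the summit after adding 1 to both, and the p and q-values deposited with it are the caller's, on the -log10 scale.

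Positions are on GRCh38, counted from 1, set against GENCODE release 44. A peak was counted at a TSS within 1 kb of it, and overlaps needed 1 bp. The fragments at a summit were recovered as the whole number that gives the deposited fold and p, within 0.001 on the -log10 scale, for at least 98.9% of peaks of each list. The overlap and recovery routines were tested on simulated data. All 10 genes were named, of the other subunits those without an ACTL6A or BRG1 peak and the best ranked, and of neighbours those with a protein-coding start within 1 kb of a peak. The lncRNA genes beside EP400 were named after values were seen. The members and lists were chosen with earlier results of these data known, and the classes of BRG1 rank and the repeat measure after values were seen. The software was pandas 2.3.3, SciPy 1.17.1, NumPy 2.4.6 and matplotlib 3.10.9 under Python 3.11.15.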

Additional observations from a re-analysis of the deposited data

How the results depend on the processing

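For 15 results 112 alternative values were computed, of which 92 were within 1.5-fold of the value reported and 20 were not. The 92 include every value with IgG-shared peaks left out. These all equalled the reported values, since no IgG peak lay in the windows or at a TSS of the other subunit genes. They add to the 92 without testing the results. A stricter threshold can only lower the reported counts. The shares of all genes with a peak were not computed at the stricter thresholds, so the shares given above are no background for the counts below.

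With only peaks whose -log10 q reached 5, NRF2 was at a TSS of 4 members and in the windows of 5, all 3 antibodies at 3, and 10 ACTL6A, 27 BRG1 and 5 NRF2 peaks were left in the windows, with 3 ACTL6A peaks at a TSS overlapping NRF2. Among the highest 5000 peaks of each list, BRG1 was at a TSS of 5 members and in the windows of 5, all 3 antibodies at 2, and 9 ACTL6A and 6 BRG1 peaks were left. Then 3 ACTL6A peaks at a TSS overlapped BRG1 and 4 overlapped NRF2, and 8 (ACTL6A) and 9 (BRG1) of the other subunit genes had a peak. With an overlap of 50% of both peaks, 1 ACTL6A peak overlapped BRG1 and 3 NRF2, and with summits within 100 bp 5 and 3 did.

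Peaks shared with IgG, also with either IgG library left out, changed none of these counts, since no IgG peak lay in the windows. No paired analysis was possible because no antibody had a second library to pair. ACTL6A peaks rested on few fragments (median 6), which limits what a missing one shows.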
